A study of Mus musculus with 14 samples.

Results

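The 14 mouse fetuses of this series were divided by the balance of adult and embryonic globin transcripts in their whole-fetus RNA. A globin index was computed for each fetus as the mean log2(value + 1) of the adult globin genes Hba-a1, Hba-a2, Hbb-bs and Hbb-bt minus that of the embryonic globin genes Hba-x, Hbb-y and Hbb-bh1. Fetuses with an index above 0.7 formed the advanced set and the others the early set, which placed 8 of the 14 fetuses in the advanced set and 6 in the early set. RNA was measured by bulk poly-A RNA-seq of fetuses taken at gestational day 12.5. The fetuses were wild type, of the cross F1 C57BL/6Jx129S1/SvlmJ, grown from zygotes that had received a synthetic mimic of the let-7f-5p microRNA (5 fetuses, 3 female and 2 male) or nuclease-free water as vehicle (9 fetuses, 5 female and 4 male), cultured, and carried by CD1 recipient dams. The labels do not tie a fetus to a dam, so fetuses may share one, and p-values measure only the spread between these fetuses.

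In the mouse embryo, a first wave of red cells made in the yolk sac carries embryonic globins. A second, definitive wave matures in the fetal liver and carries adult globins, and at mid-gestation blood holds both. Hba-x encodes zeta globin, Hbb-y epsilon-y globin and Hbb-bh1 beta-h1 globin, while Hba-a1 and Hba-a2 encode adult alpha globin and Hbb-bs and Hbb-bt adult beta globin. The ratio of the adult to the embryonic transcripts therefore changes with developmental age in an intact embryo, alongside the rise of cartilage, muscle, lens and neuronal differentiation genes.

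The promoters of globin genes of both kinds are printed because these genes define the sets. Each line gives the 120 bases before the transcription start from RefSeq on GRCm38.p6, 5′ to 3′ along the gene. Capitals mark every match on either strand to CACCC, to CCAAT or to TATAA.
Hba-a1, adult, chr11:32283552-32283671, plus strand: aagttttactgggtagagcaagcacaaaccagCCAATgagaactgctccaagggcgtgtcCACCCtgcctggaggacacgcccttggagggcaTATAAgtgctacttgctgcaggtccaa
Hbb-bs, adult, chr7:103827929-103828048, minus strand: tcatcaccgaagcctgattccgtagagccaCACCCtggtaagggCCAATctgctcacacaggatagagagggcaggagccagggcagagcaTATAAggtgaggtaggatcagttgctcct
Hba-x, embryonic, chr11:32276480-32276599, plus strand: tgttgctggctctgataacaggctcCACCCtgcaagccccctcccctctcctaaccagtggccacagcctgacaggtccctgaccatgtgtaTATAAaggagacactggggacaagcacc
Hbb-y, embryonic, chr7:103853208-103853327, minus strand: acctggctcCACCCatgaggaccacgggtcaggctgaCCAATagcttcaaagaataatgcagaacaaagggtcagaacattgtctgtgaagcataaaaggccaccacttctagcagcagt
A CACCC match was present in all 4 stretches and also in 31.7% of the 32851 promoter stretches of the same length in the RefSeq table. The CCAAT letters were in Hba-a1, Hbb-bs and Hbb-y, and in 21.3% of all stretches, and TATAA was in Hba-a1, Hbb-bs and Hba-x, and in 11.8% of all stretches. All 3 motifs together stood in 0.688% of stretches. Hbb-bh1 had no entry in the table. These matches describe the letters in the window only.

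The microRNA whose mimic was injected is printed with its seed, bases 2 to 8, in capitals, as given by RefSeq and identical to the mimic named in the labels.
mmu-let-7f-5p: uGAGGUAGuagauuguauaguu
The let-7 family is known to rise as embryonic cells mature and to repress oncofetal transcripts such as Lin28b, Hmga2 and Igf2bp1.

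The sets were chosen by the values of these globin genes, which are therefore given without a test. Values are the authors' normalized counts. The index ranged from 1.40 to 2.98 in the advanced set (median 1.88), against -1.46 to 0.281 in the early set (median -0.174). The advanced fetus nearest the threshold was let-7f female 1 at 1.40, and the early fetus nearest to it was let-7f female 3 at 0.281. No fetus lay between those values.

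Hbb-bs had its lowest, median and highest values at 81737, 101636 and 314066 in advanced fetuses, against 5329, 48927 and 110067 in early fetuses. Hbb-bt stood at 47220, 55877 and 182367 in advanced fetuses, against 3809, 28561 and 59769 in early fetuses. Hba-a1 stood at 155680.3, 205820 and 506085 in advanced fetuses, against 47648, 170889 and 389694 in early fetuses. Each adult globin overlapped between the sets when taken alone.

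Among the embryonic genes, Hbb-bh1 had lowest, median and highest values of 2354, 4799 and 8721 in advanced fetuses, against 8314, 14456 and 52472 in early fetuses. Hba-x stood at 15664, 30807 and 45329 in advanced fetuses, against 33882, 69434 and 138162 in early fetuses. Hbb-y stood at 64954, 90005 and 135341 in advanced fetuses, against 56092, 140781 and 313122 in early fetuses. Embryonic globins overlapped as well, with the smallest contrast at Hbb-y.

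The summed adult globin value was 2.67 to 6.37 times the summed embryonic value in advanced fetuses (median 3.32), against 0.652 to 1.45 times in early fetuses (median 1.22). All 7 genes together made up 1.19% to 3.35% of the deposited total in advanced fetuses and 0.469% to 2.31% in early fetuses. Total globin therefore overlapped, while its composition, on which the sets were cut, did not. Both the alpha and the beta cluster enter the index, and neither overlapped between the sets. The log2 adult-minus-embryonic difference was 1.14 to 2.82 at the alpha genes and 1.41 to 3.09 at the beta genes in advanced fetuses, against -0.866 to 0.360 and -2.26 to 0.0389 in early fetuses. In bulk RNA, fewer cells of a type and less RNA per cell cannot be told apart. Reads from near-identical copies such as Hba-a1 and Hba-a2, or Hbb-bs and Hbb-bt, could be split between them by the authors' quantification.

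**Figure D1:**
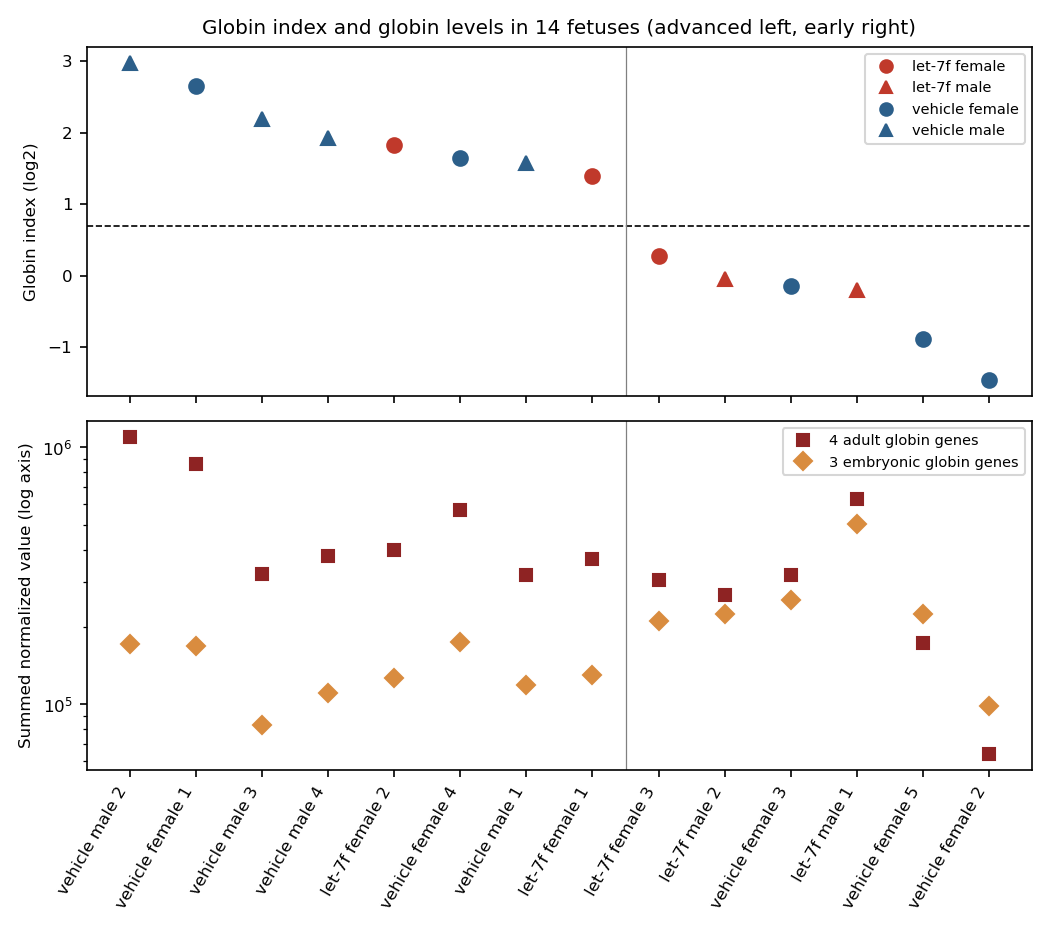
The upper panel plots the globin index (log2) of each fetus in falling order, with colour for treatment, marker shape for sex and a dashed line at the threshold of 0.7; the lower panel plots the summed normalized values of the 4 adult and 3 embryonic globin genes on a log axis. The 8 advanced fetuses, left of the vertical line, lie between 1.40 and 2.98, and the 6 early fetuses lie between -1.46 and 0.281.

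The sets were not balanced for treatment or sex. The advanced set held 2 let-7f and 6 vehicle fetuses, 4 of them female and 4 male, and the early set held 3 let-7f and 3 vehicle fetuses, 4 female and 2 male. All 4 vehicle males were advanced and neither of the 2 let-7f males was, so in males the set and the treatment cannot be told apart. Among females, 2 of 3 let-7f and 2 of 5 vehicle fetuses were advanced.

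The gene counts recovered from the deposited values summed to 27709934 to 42898166 per library. Markers of liver, red cells, heart, muscle, brain, cartilage, skin, endothelium and macrophages were above 0 in all 14 fetuses, which shows only that they were detected. Some libraries stood apart. Vehicle female 2, of the early set, had 43.8 normalized counts of albumin (Alb), where the other 13 fetuses had 10269 to 61427. This fetus also had the lowest globin index (-1.46), and whether its low liver transcripts bear on its index was not tested. Let-7f male 1, of the early set, had 15.7% of its total in cytosolic ribosomal protein genes and 2.21% in Lars2, the mitochondrial leucyl-tRNA synthetase. Vehicle male 1, of the advanced set, held the highest sums of the trophoblast markers analysed here (332, against 27.5 to 49.8 in the early set) and of the yolk sac endoderm markers (1890, against 103 to 156 in the early set). Markers of trophoblast were represented by 3 of 7 genes, of yolk sac by 2 of 4 and of decidua by 1 of 3.

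Outside the globin genes of the index, genes called higher in advanced fetuses included Col6a1 and 10 others of 29 collagen and matrix genes, Cryga and 4 others of 19 lens genes, and Acan and 2 others of 21 cartilage genes. Genes called lower included Igdcc3, Msx3, Lmx1a and Shh. With treatment as covariate, limma called 121 of 17393 genes (0.696%) at a Benjamini-Hochberg adjusted p below 0.05. Of these, 107 were higher in advanced fetuses (0.615% of genes tested) and 14 were lower (0.0805%). The log2 difference, advanced minus early, ran from 0.36 to 3.56 among the higher genes (median 0.93) and from -0.96 to -0.40 among the lower genes (median -0.57). The sets did not overlap at 91 of the 107 higher and 13 of the 14 lower genes, where over all genes tested 1.12% lay wholly higher and 0.276% wholly lower. The calls compared the same sets in the same fetuses, so this lack of overlap is no separate support for them.

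How many genes were called depended on single fetuses and on the covariates. Leaving out 1 fetus gave 31 to 194 calls, with 71 without vehicle male 3, 77 without vehicle female 1, 64 without vehicle female 2, 31 without vehicle female 5, 34 without let-7f female 2 and 194 without let-7f male 1. In all 14 such fits, 30 of the higher genes and 1 of the lower genes stayed called. With sex as a further covariate, 71 of the higher genes and 9 of the lower genes stayed called. Those that lost their call included Gc, Myom2, Tnmd, Cytl1, Cps1, Grin1, Rfx4, Nkx6-1, Car14 and Adgrv1. With the 4 groups of treatment and sex as covariates, or in females alone, limma called 0 genes. At an unadjusted p below 0.05 there were 910 and 1446 genes in those fits, and edgeR's quasi-likelihood test on all 14 fetuses called 96. In the females, which are part of the fit that chose the genes, 106 of the 106 higher genes measured and 14 of the 14 lower genes had the same direction.

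**Figure D2:**
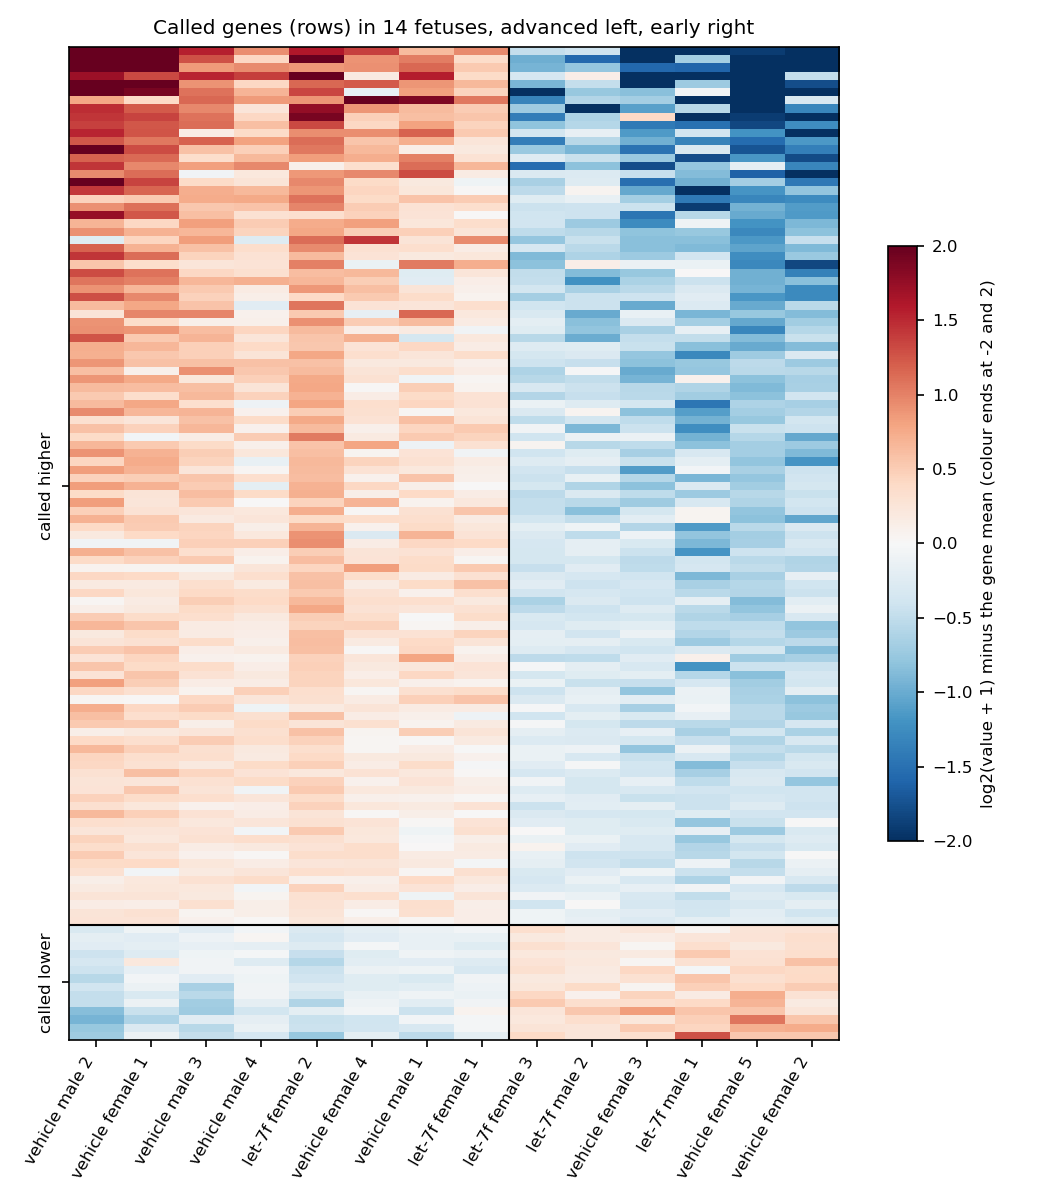
Each row is 1 of the 121 called genes and each column 1 fetus in falling order of the globin index, with advanced fetuses left of the vertical line; colour gives log2(value + 1) minus the gene's mean over the 14 fetuses. The 107 higher genes lie above the horizontal line and the 14 lower genes below it, and vehicle male 2 and vehicle female 1, which have the highest index, show many of the strongest increases.

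Among the genes of the cartilage and bone formation lists, Ibsp had the largest difference. Ibsp encodes bone sialoprotein, a matrix protein of mineralizing bone and cartilage. Its lowest, median and highest values were 55.6, 96.7 and 219.7 in advanced fetuses, against 4.79, 11.7 and 26.4 in early fetuses. Every advanced fetus lay above every early one. The difference in log2 was 3.31 ± 0.41 (SE, n = 8 and 6; limma adjusted p = 0.0028). The call held in all 14 fits that left out 1 fetus, and in a limma fit without 5 libraries left out together (adjusted p = 0.011). Those libraries were let-7f male 1 and replicates 1 and 2 of both the vehicle males and the vehicle females. They include the highest indices, in vehicle male 2 (2.98) and vehicle female 1 (2.66), and the lowest, in vehicle female 2 (-1.46). Leaving them out therefore also removes both ends of the index.

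Acan encodes aggrecan, the large proteoglycan of cartilage. Values were 958, 1192 and 1946 at the lowest, median and highest in advanced fetuses, against 416, 473 and 681 in early fetuses, again with no overlap. Acan rose by 1.36 ± 0.17 on the log2 scale (SE; limma adjusted p = 0.0028), with the call kept in all 14 leave-one-out fits. Matn1, which encodes matrilin-1 of cartilage, stood at 233, 323 and 932 in advanced fetuses, against 63.2, 96.8 and 171.0 in early fetuses. That difference was 1.98 ± 0.32 on the log2 scale (SE; limma adjusted p = 0.011), and the call was lost without vehicle female 5 (adjusted p = 0.065).

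Of the 21 cartilage genes tested, 3 rose (Acan, Matn1 and Col11a2, a chain of cartilage type XI collagen), none fell, and the median log2 difference was 0.72. Over all genes tested the median was -0.03, and 43.41% of genes were above 0. In the cartilage list 19 of 21 were above 0, and without the 5 libraries named above 6 were called. Sox9, the regulator of early chondrocytes, had marker values of 2422 to 3138 in advanced fetuses and 2781 to 3171 in early fetuses, which overlap. Of 14 bone formation genes, 2 rose, Ibsp and Panx3, a channel protein of hypertrophic chondrocytes and osteoblasts, and the list's median was 0.05. Panx3 values were 23.1, 31.8 and 66.2 in advanced fetuses, against 2.63, 4.90 and 22.9 in early fetuses, and without the 5 libraries Panx3 was not called (adjusted p = 0.13).

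Connective tissue matrix was the list with the most calls. Of 29 collagen and matrix genes, 11 rose and none fell, 27 were above 0, and the median log2 difference was 0.43. The sets did not overlap at 13 of them. The genes that rose were the type VI collagens Col6a1, Col6a2 and Col6a3, the fibril-associated collagens Col12a1 and Col14a1, the small proteoglycans Dcn, Lum and Ogn, elastin (Eln), the crosslinking enzyme lysyl oxidase (Lox) and thrombospondin-2 (Thbs2). Without the 5 libraries 9 of the 29 were called. Col14a1 was kept in 2 of the 14 leave-one-out fits, and Col6a1, Col6a2, Lox, Thbs2 and Ogn in all 14.

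Col6a1 had values of 6028, 7262 and 8196 at the lowest, median and highest in advanced fetuses, against 3784, 4286 and 4523 in early fetuses. The sets were clearly apart, with the lowest advanced fetus above the highest early one. The difference in log2 was 0.80 ± 0.08 (SE; limma adjusted p = 6.6e-04). Lox, which crosslinks collagen and elastin, stood at 1694, 1827 and 2420 in advanced fetuses, against 744, 1004 and 1111 in early fetuses, which was higher by 1.01 ± 0.12 on the log2 scale (SE; limma adjusted p = 0.0027). Thbs2 stood at 1168, 1407 and 1770 in advanced fetuses, against 652, 750.4 and 880.4 in early fetuses, and differed by 0.89 ± 0.11 (SE; limma adjusted p = 0.0028).

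Aspn, Tnmd and Cytl1, which belong to none of the lists described, were among the 10 largest differences of the naming rule. Aspn encodes asporin, a small leucine-rich matrix protein, and had 149, 219 and 290 normalized counts in advanced fetuses, against 30.7, 43.8 and 74.8 in early fetuses. Tnmd encodes tenomodulin, a membrane protein of mature tendon cells, and had 91.3, 145 and 241 in advanced fetuses, against 21.2, 47.8 and 93.5 in early fetuses. Aspn did not overlap between the sets and Tnmd overlapped narrowly. Aspn rose by 2.20 ± 0.23 (SE; limma adjusted p = 6.6e-04) and kept its call in all 14 leave-one-out fits. Tnmd rose by 1.58 ± 0.31 (SE; limma adjusted p = 0.035), kept its call in 5 of them and was not called without the 5 libraries (adjusted p = 0.071). Cytl1, a cytokine-like protein made by chondrocytes, rose by 1.63 ± 0.34 (SE; limma adjusted p = 0.044) kept its call in 4 of the 14 and was not called without the 5 libraries (adjusted p = 0.081).

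**Figure D3:**
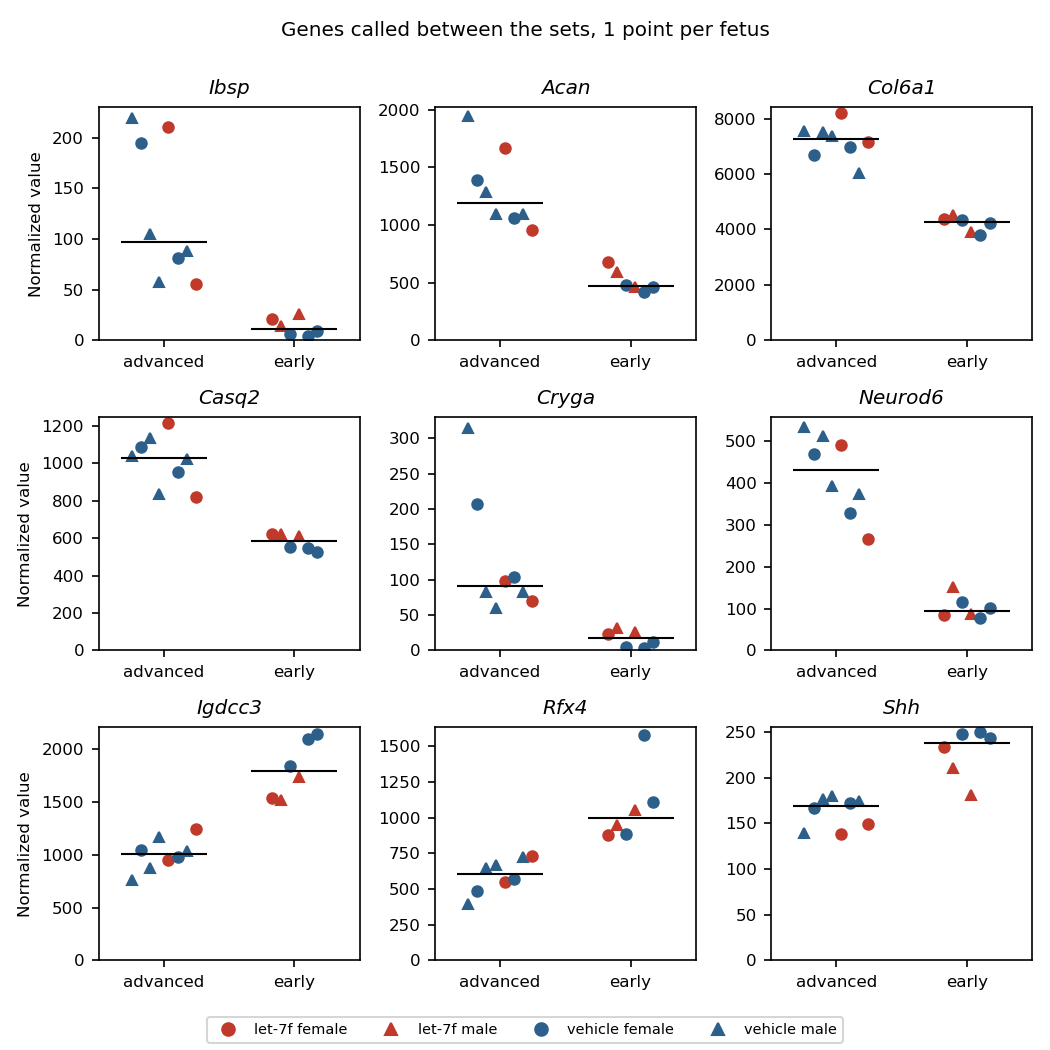
Each panel plots the normalized value of 1 called gene in every fetus, advanced left and early right, with a line at the set's median, colour for treatment and marker shape for sex; every axis starts at 0. At each of the 9 genes the sets do not overlap: 6 are higher in advanced fetuses (Ibsp, Acan, Col6a1, Casq2, Cryga, Neurod6) and 3 are lower (Igdcc3, Rfx4, Shh).

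Of the muscle lists, the sarcomere list held the calls, at Casq2 and Myom2. Casq2 encodes calsequestrin-2, a calcium store of cardiac and fetal skeletal muscle, and had 819, 1031 and 1214 normalized counts in advanced fetuses, against 525, 584 and 624.7 in early fetuses. It rose by 0.82 ± 0.10 (SE; limma adjusted p = 0.0029), without overlap and in all 14 leave-one-out fits. Myom2, which encodes an M-band protein of the sarcomere, had 320, 542 and 936 in advanced fetuses, against 147, 215 and 381 in early fetuses. The Myom2 ranges overlapped, and the difference in log2 was 1.34 ± 0.25 (SE; limma adjusted p = 0.027). Its call was kept in 8 of the 14 leave-one-out fits (highest adjusted p 0.115) and without the 5 libraries (adjusted p = 0.0075). It was lost with sex as a further covariate (limma adjusted p = 0.051).

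Of the 28 skeletal muscle sarcomere genes 2 rose, Casq2 and Myom2, none fell, 24 were above 0 and the median was 0.51. The score of this list overlapped between the sets, at -0.26 to 0.90 in advanced fetuses and -0.76 to 0.88 in early fetuses. The highest early score was that of let-7f male 1. None of the 13 skeletal muscle regulators and none of the 20 heart muscle genes was called. Their medians were 0.31 and -0.30. The summed values of the heart markers Myh6, Nppa, Myl7 and Nkx2-5 were 4328 to 16212 in advanced fetuses, against 4957 to 54760.3 in early fetuses. Without let-7f male 1, which had the highest heart muscle score (0.98), the median of the heart muscle list was -0.13.

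The lens list was above 0 throughout. Of 19 lens genes 5 rose and all 19 were above 0, with a median log2 difference of 1.13. Cryga, which encodes gamma-A crystallin of lens fibre cells, had 59.5, 91.1 and 315 normalized counts in advanced fetuses, against 2.87, 17.6 and 31.5 in early fetuses. It rose by 3.17 ± 0.50 (SE; limma adjusted p = 0.011). Mip, the water channel of lens fibres, had 94.5, 117 and 143 in advanced fetuses, against 42.2, 54.9 and 71.8 in early fetuses, and rose by 1.09 ± 0.16 (SE; limma adjusted p = 0.0078). The sets did not overlap at either gene, and Mip was not called without the 5 libraries (adjusted p = 0.071).

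Crygd had 11.1, 15.0 and 75.9 normalized counts in advanced fetuses, against 0, 1.80 and 3.93 in early fetuses, and its call was lost without vehicle female 5 (adjusted p = 0.071). Crygb and Cryba2 also rose, each kept in 4 of the 14 leave-one-out fits. The gamma crystallins are close copies, 47.9% of the exon bases of Cryga lie within Gm28845 on the same strand, and 57% of those of Mip lie opposite Gm26847, so their reads could be shared. Without the 5 libraries 4 lens genes were called.

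Neuronal factors moved in both directions. Neurod6, a bHLH factor of differentiating cortical neurons, had 266, 431 and 535 normalized counts in advanced fetuses, against 76.7, 94.4 and 153 in early fetuses. It had no overlap, rose by 2.01 ± 0.20 (SE; limma adjusted p = 6.6e-04) and kept its call in all 14 leave-one-out fits. Neurod2, a related factor of the same lineage, had 254, 286 and 602 in advanced fetuses, against 93.0, 133 and 169 in early fetuses, and rose by 1.35 ± 0.22 (SE; limma adjusted p = 0.012), a call lost without vehicle female 5 or let-7f female 2 (highest adjusted p 0.0696). Atoh7, which specifies retinal ganglion cells, had 36.5, 63.4 and 93.1 in advanced fetuses, against 9.16, 15.9 and 29.7 in early fetuses, and rose by 1.80 ± 0.28 (SE; limma adjusted p = 0.0090). Without the 5 libraries Atoh7 was not called (adjusted p = 0.071).

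Among 19 proneural factors, 3 rose (Neurod6, Neurod2 and Atoh7) and 1 fell (Nhlh2, a bHLH factor of young neurons). The list's median was -0.30, with 14 of 19 below 0, so its called members and its median pointed in different directions. Of 30 postmitotic neuron genes, 2 rose, none fell and 22 were above 0, with a median of 0.08. Camk2b, a calcium-dependent kinase of neurons, had 562, 636 and 752 in advanced fetuses, against 270, 389 and 447 in early fetuses, and rose by 0.80 ± 0.12 (SE; limma adjusted p = 0.0086), a call lost without vehicle female 5 (adjusted p 0.0514). Grin1, the obligatory NMDA receptor subunit, rose by 0.56 ± 0.12 (SE; limma adjusted p = 0.043), overlapped between the sets, kept its call in 3 of the 14 fits and was not called without the 5 libraries (adjusted p = 0.10).

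In the glial list 1 of 16 genes rose. Aldh1l1, a folate enzyme used as a marker of astrocytes and radial glia, had 321, 516 and 796 in advanced fetuses, against 187, 270 and 310 in early fetuses, and rose by 1.17 ± 0.17 (SE; limma adjusted p = 0.0067). The median of the glial list was 0.09.

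The 14 lower genes included regulators of the dorsal and ventral neural tube. Igdcc3, an immunoglobulin-family membrane protein of the early neural tube, had 761, 1004 and 1247 normalized counts in advanced fetuses, against 1517, 1787 and 2138 in early fetuses. It fell by 0.87 on the log2 scale (SE 0.13; limma adjusted p = 0.0066), without overlap, and was the only lower gene called in all 14 leave-one-out fits. Msx3, a homeobox gene of the dorsal neural tube, had 206, 265 and 322 in advanced fetuses, against 416, 485 and 848 in early fetuses, and fell by 0.96 (SE 0.17; limma adjusted p = 0.022).

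Shh, the signal of the notochord, floor plate, gut and limb, had 138, 169 and 180.2 in advanced fetuses, against 182, 238 and 250.1 in early fetuses. The sets abutted without overlapping, and Shh fell by 0.54 (SE 0.10; limma adjusted p = 0.023). Lmx1a, which marks the roof plate and midbrain floor plate, fell by 0.83 (SE 0.15; limma adjusted p = 0.026). Rfx4, a factor of neural progenitors, had 394, 609 and 731 in advanced fetuses, against 876, 1002 and 1577 in early fetuses, and fell by 0.86 (SE 0.17; limma adjusted p = 0.038). Nkx6-1, which patterns ventral neural tube and pancreas, fell by 0.56 (SE 0.11; limma adjusted p = 0.035). Hoxa2, a Hox gene of the hindbrain, fell by 0.42 (SE 0.08; limma adjusted p = 0.029).

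Most calls of the lower genes depended on single fetuses. Msx3 and Shh lost theirs without vehicle female 2, vehicle female 5 or let-7f female 2 (highest adjusted p 0.099 and 0.10), Lmx1a was kept in 8 of the 14 fits, Nkx6-1 in 7, Rfx4 in 6 and Hoxa2 in 4. Without the 5 libraries Msx3, Igdcc3 and Shh were called, and Rfx4, Lmx1a, Nkx6-1 and Hoxa2 were not (adjusted p = 0.094, 0.081, 0.097 and 0.11). Of 24 neural progenitor genes, Rfx4 fell, none rose, 22 were below 0 and the median was -0.27. Of 18 limb patterning genes, Shh alone fell and the median was -0.16. Of 38 Hox genes, Hoxa2 alone fell and the median was -0.12. Of 13 gut, lung and pancreas genes, Shh and Nkx6-1 fell and the median was -0.10.

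The remaining genes of the naming rule gave these values. Hsd11b2, which inactivates glucocorticoid, had 289, 408 and 445 in advanced fetuses, against 528, 607 and 750.3 in early fetuses, and fell by 0.72 (SE 0.13; limma adjusted p = 0.023). It is the called member of the 7-gene decidua list, whose median was 0.13; the gene is also expressed in fetal tissues. Fignl2, a relative of the microtubule-severing protein fidgetin, fell by 0.65 (SE 0.12; limma adjusted p = 0.025), Car14, a carbonic anhydrase, by 0.58 (SE 0.11; limma adjusted p = 0.035), and Adgrv1, a large adhesion receptor of hair cells and brain, by 0.54 (SE 0.11; limma adjusted p = 0.049). Gbp6, an interferon-inducible GTPase with close copies, rose by 1.56 ± 0.22 (SE; limma adjusted p = 0.0047). Sowaha, an ankyrin-repeat protein gene, rose by 1.52 ± 0.25 (SE; limma adjusted p = 0.015). Of the 14 leave-one-out fits, Gbp6 kept its call in all 14, Hsd11b2 in 12, Sowaha in 11, Fignl2 in 9, Car14 in 6 and Adgrv1 in 2. Without the 5 libraries Gbp6 and Sowaha were called, and Hsd11b2, Fignl2, Car14 and Adgrv1 were not (adjusted p = 0.055, 0.065, 0.11 and 0.081).

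**Figure D4:**
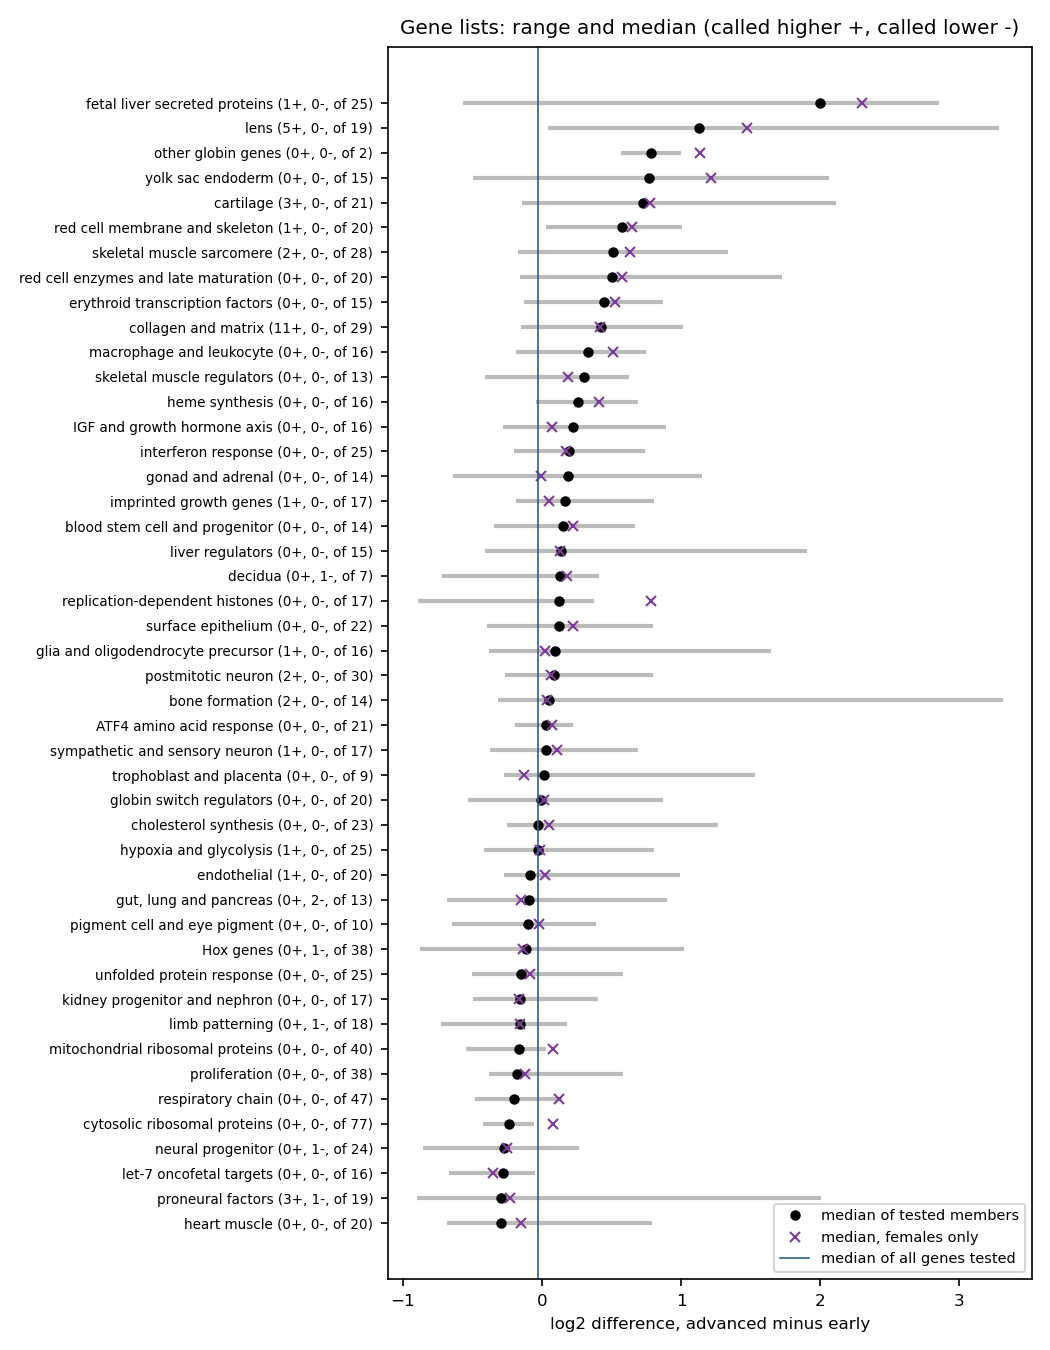
Each row is a gene list with its calls and number of genes tested; the grey bar spans the log2 differences (advanced minus early) of its tested members, the black point is their median, the cross is the median in females only and the vertical line is the median of all genes tested. Lens, cartilage, sarcomere and matrix lists lie right of the line in both, while the ribosomal protein and respiratory chain lists lie left of it in all fetuses and right of it in females.

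Red cell genes other than globins were mostly above 0 but rarely passed the test. Of 20 red cell membrane and skeleton genes all 20 were above 0, with a median of 0.58, and 1 rose. Aqp1, the water channel of red cells and of vessels, had 579, 697 and 886 normalized counts in advanced fetuses, against 326, 419 and 484 in early fetuses. It rose by 0.77 ± 0.13 (SE; limma adjusted p = 0.017), without overlap, and was lost without vehicle female 2, vehicle female 5 or let-7f female 2 (highest adjusted p 0.088) and without the 5 libraries (adjusted p = 0.051).

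None of the 15 erythroid transcription factors, 16 heme synthesis genes and 20 red cell enzyme and late maturation genes was called. Of these, 13, 14 and 19 were above 0, with medians of 0.44, 0.26 and 0.50. Vehicle female 2 had the lowest score of all these lists, and without that fetus the medians were 0.25, 0.08 and 0.24, and the membrane list's 0.32. The summed erythroid markers Alas2, Slc4a1, Klf1, Gata1 and Epor were 18373 to 37788 in advanced fetuses and 8395 to 31030.3 in early fetuses, which overlap. With the erythroid score (the mean of the heme synthesis and red cell membrane lists) as a further covariate, limma called 22 genes, 18 of them among the 121.

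Values of other red cell genes that did not pass are given for completeness of the pathway. Alas2, the first enzyme of erythroid heme synthesis, had a difference of 0.60 ± 0.40 in log2 (SE; limma adjusted p = 0.77). Slc4a1, the band 3 anion exchanger, had 0.70 ± 0.28 (SE; limma adjusted p = 0.42). Tfrc, the transferrin receptor, had 4938, 5351 and 6254 normalized counts in advanced fetuses, against 2693, 4239 and 4550.3 in early fetuses, without overlap, and a difference of 0.48 ± 0.12 in log2 (SE; limma adjusted p = 0.10). Cpox, a heme synthesis enzyme, E2f2 and Tal1, erythroid transcription factors, and the late maturation genes Pklr and Tmcc2 had differences of 0.69, 0.58, 0.52, 1.01 and 0.88 (limma adjusted p = 0.27, 0.18, 0.21, 0.16 and 0.083). The theta globin genes Hbq1a and Hbq1b, outside the index, had 0.998 and 0.568 (limma adjusted p = 0.61 and 0.58).

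Known regulators of globin switching did not separate the sets in whole-fetus RNA, which does not give their levels in red cells. None of the 20 genes listed was called, 10 were above 0 and the median was -0.00436. The list mixes repressors and activators, so its median has no expected direction. Bcl11a, the repressor of embryonic globin genes, had 2812, 2979 and 3116 in advanced fetuses, against 2886, 3069.7 and 3387 in early fetuses. The ranges overlapped almost wholly, and the difference in log2 was -0.06 ± 0.07 (SE; limma adjusted p = 0.91). Klf1, which activates adult beta globin, had 511, 756 and 1427 in advanced fetuses, against 91.9, 647 and 904 in early fetuses, which differed by 0.85 ± 0.44 on the log2 scale (SE; limma adjusted p = 0.59), and 0.26 without vehicle female 2. Myb, a factor of definitive progenitors, had 0.02 ± 0.12 and Kit, their stem cell factor receptor, -0.13 ± 0.15 (SE; limma adjusted p = 0.98 and 0.92). Nfix, a nuclear factor of definitive progenitors and muscle, had 0.78 ± 0.26 (SE; limma adjusted p = 0.25), and was called without the 5 libraries (adjusted p = 0.030).

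The let-7 oncofetal targets all stood below 0 without a call. Of 16 genes tested 0 passed the test, all 16 had a log2 difference below 0, and the median was -0.28, beside -0.03 over all genes. Trim71, a stem cell RNA-binding ubiquitin ligase, had 200.4, 347 and 448 in advanced fetuses, against 453, 523 and 616 in early fetuses. Those ranges did not overlap, and the difference in log2 was -0.67 ± 0.18 (SE; limma adjusted p = 0.14). Igf2bp1, an oncofetal RNA-binding protein, had 4724, 7103 and 8964 in advanced fetuses, against 8264, 9144 and 11265 in early fetuses, and a difference of -0.43 ± 0.16 in log2 (SE; limma adjusted p = 0.32).

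Lin28b and Lin28a, which block let-7 maturation, had -0.32 ± 0.12 and -0.53 ± 0.30 (SE; limma adjusted p = 0.37 and 0.65). Hmga2, a chromatin protein of fetal growth, had -0.34 ± 0.13 (SE; limma adjusted p = 0.38), and E2f5, a cell cycle factor, -0.27 ± 0.09 (SE; limma adjusted p = 0.21). The list's score was lowest in vehicle male 2 (-0.591) and vehicle female 1 (-0.385), which had the highest index. The let-7f fetuses had -0.122 (female 2) and 0.0966 (female 1) in the advanced set. In the early set they had -0.0628 (male 1), 0.0777 (female 3) and 0.1415 (male 2). Whether the scores follow the index or the mimic was not tested. The injection itself stood in the fit as a covariate. Whether the difference between sets itself differed between let-7f and vehicle fetuses was tested by an interaction term, which called 0 of 17393 genes (0%) by limma, with 1795 at an unadjusted p below 0.05, and 0 by edgeR, with 2505. The let-7f fetuses were 2 advanced females, 1 early female and 2 early males. The vehicle fetuses were 2 advanced females, 4 advanced males and 3 early females. With so few fetuses, sex uneven among them and no term for sex, the lack of calls does not show that the difference was the same.

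**Figure D5:**
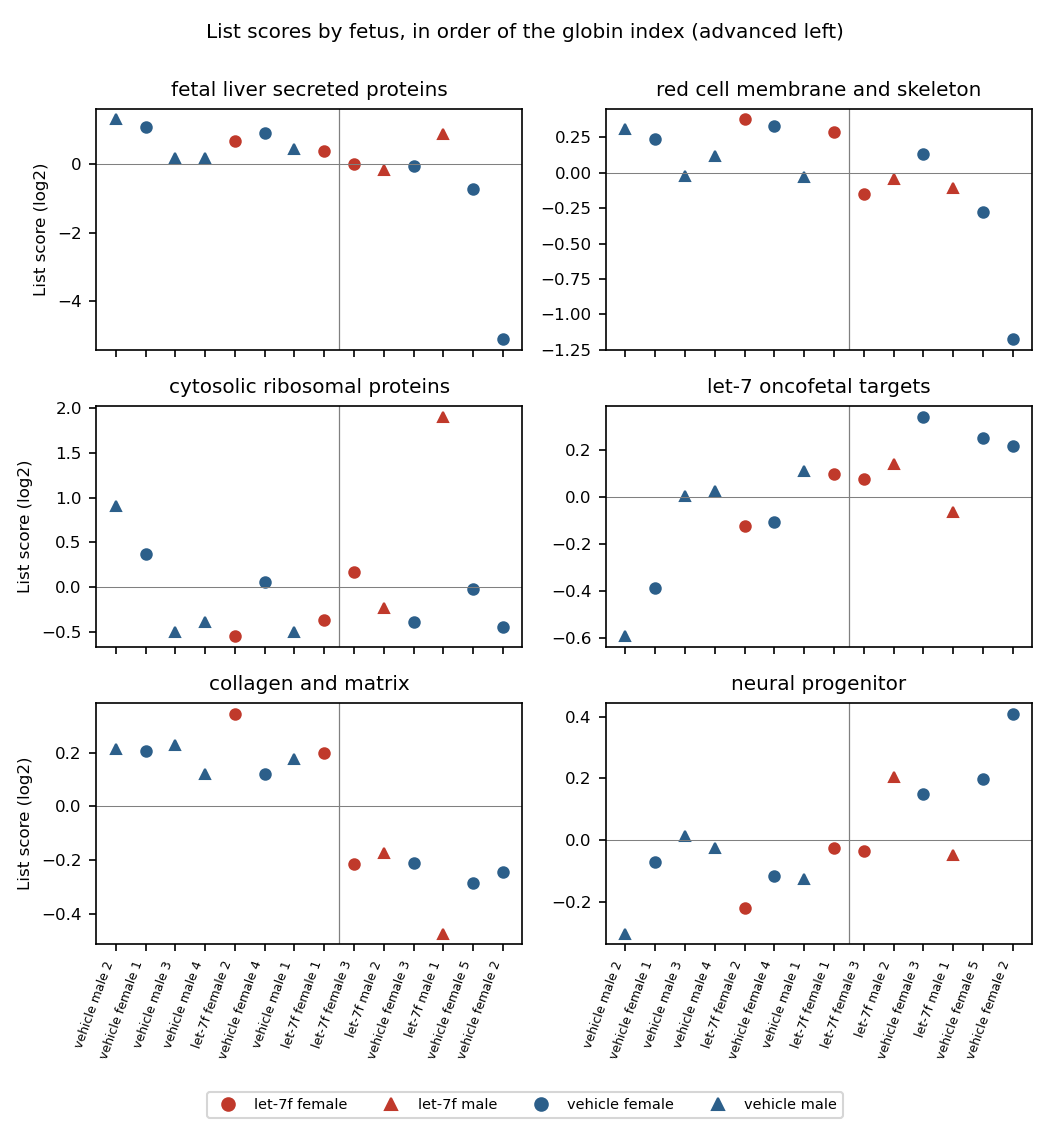
Each panel plots a list score, the mean over tested members of log2(value + 1) minus the gene's mean over the 14 fetuses, for every fetus in falling order of the globin index, with advanced fetuses left of the vertical line, colour for treatment and marker shape for sex. Vehicle female 2 is far below the others in the liver panel (-5.12) and let-7f male 1 far above them in the ribosomal protein panel (1.91), while the collagen and matrix scores of the sets do not overlap.

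Liver secreted protein genes had a high median with 1 call, and the median moved with a single fetus. Of 25 fetal liver secreted protein genes 24 were above 0 and the median log2 difference was 1.997, or 0.69 without vehicle female 2. Cps1, the first enzyme of the urea cycle, was the list's only call, at 1.34 ± 0.28 (SE; limma adjusted p = 0.046), kept its call in 2 of the 14 fits and was not called without the 5 libraries (adjusted p = 0.15). Alb had 16913, 26431 and 61427 normalized counts in advanced fetuses, against 43.8, 13256 and 42770.2 in early fetuses, and a difference of 2.62 ± 1.15 in log2 (SE; limma adjusted p = 0.47), or 0.88 without vehicle female 2. Afp, alpha-fetoprotein, had 2.06 ± 1.11 (SE; limma adjusted p = 0.62), or 0.40 without that fetus. Gc, the plasma vitamin D-binding protein made by liver, was called by the rule for largest differences, with 133, 230 and 346 in advanced fetuses, against 8.75, 73.4 and 107 in early fetuses. Gc rose by 2.19 ± 0.44 (SE; limma adjusted p = 0.038), kept its call in 4 of the 14 fits, and without the 5 libraries had 1.35 (adjusted p = 0.026). It was not called with sex as a further covariate (limma adjusted p = 0.062) or by edgeR's quasi-likelihood test (adjusted p = 0.056).

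Proliferation genes leaned the other way. Of 38 genes 34 were below 0 with a median of -0.18, and none was called. Bub1b, a spindle checkpoint kinase, had 5008, 5059 and 5634 in advanced fetuses, against 5831, 6313 and 6858 in early fetuses, without overlap, and a log2 difference of -0.28 ± 0.07 that did not pass (SE; limma adjusted p = 0.11). None of 16 macrophage and leukocyte genes was called, 14 were above 0 and the median was 0.33. Mrc1 and Adgre1, both macrophage markers, had 0.44 ± 0.10 and 0.75 ± 0.25 (SE; limma adjusted p = 0.068 and 0.25). Lyve1, a receptor of lymphatic endothelium and macrophages, rose by 0.99 ± 0.19 (SE; limma adjusted p = 0.027), the only call among 20 endothelial genes, whose median was -0.09. Its call was kept in 9 of the 14 leave-one-out fits (highest adjusted p 0.115) and was lost without the 5 libraries (adjusted p = 0.080).

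Of 17 imprinted growth genes, Dcn alone rose, by 0.76 ± 0.13 (SE; limma adjusted p = 0.015), with a list median of 0.17. Its call was lost without vehicle female 5 or let-7f female 2 (highest adjusted p 0.0781) and without the 5 libraries (adjusted p = 0.055). Igf2, the fetal growth factor, had 62643, 93876 and 97466 in advanced fetuses, against 52836, 63081 and 80096 in early fetuses, and a log2 difference of 0.46 ± 0.15 that did not pass (SE; limma adjusted p = 0.24). An annotated transcript, Gm49394, covers 62.8% of its exon bases on the same strand. Of 25 hypoxia and glycolysis genes, Ndrg1, a stress- and differentiation-responsive gene of myelinating and epithelial cells, alone rose. It had 643, 773 and 1115 in advanced fetuses, against 416, 448 and 531 in early fetuses, and a difference of 0.81 ± 0.12 in log2 (SE; limma adjusted p = 0.0090).

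Cytosolic ribosomal protein genes had a median whose sign depended on the libraries kept. All 77 were below 0 with a median of -0.23, and none was called. The median was 0.04 without let-7f male 1, 0.08 in females, and -0.24 without the 5 libraries, let-7f male 1 among them. The respiratory chain list had 46 of 47 below 0 and a median of -0.20. That median was 0.05 without let-7f male 1 and -0.21 without the 5 libraries. Rps27a, of the small ribosomal subunit, had -0.38 ± 0.41 (SE; limma adjusted p = 0.91). Uqcrb and Ndufs4, of respiratory complexes III and I, had -0.26 ± 0.29 and -0.37 ± 0.41 (SE; limma adjusted p = 0.91 for both). Lars2 had 0.19 ± 0.98 (SE; limma adjusted p = 0.98). The share of ribosomal protein genes was 3.91% to 9.43% in advanced fetuses, against 4.04% to 15.7% in early fetuses, and its part in the calls was not tested beyond its use as a covariate.

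Over the 14 fetuses, the genes whose log2(value + 1) followed the index most closely, among those with a mean of at least 50, were Mip (Pearson r = 0.97), Agtr2, the type 2 angiotensin receptor (r = 0.96), Susd5 (r = 0.96), Pamr1, named for its link to muscle regeneration (r = 0.96), and Acan (r = 0.95). The genes that ran most closely against it were Igdcc3 (r = -0.96), Rfx4 (r = -0.93), Cyb5b, a mitochondrial outer membrane cytochrome (r = -0.91), Crb2, an apical polarity protein (r = -0.90), and Prmt8, a neuronal arginine methyltransferase (r = -0.90). These values are descriptions, since fetuses of both sets enter them and the libraries share the traits given above.

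Susd5, Pamr1 and Agtr2 were also called. Susd5 had 330, 412 and 517 in advanced fetuses, against 112, 160 and 193 in early fetuses, and rose by 1.41 ± 0.14 (SE; limma adjusted p = 6.6e-04) with its call kept in all 14 leave-one-out fits. Pamr1 had 498, 685 and 868 in advanced fetuses, against 193, 308 and 379 in early fetuses, and rose by 1.24 ± 0.18 (SE; limma adjusted p = 0.0056). Agtr2 had 507, 693 and 990 in advanced fetuses, against 287, 368 and 449 in early fetuses, and rose by 0.96 ± 0.17 (SE; limma adjusted p = 0.017). Agtr2 lost its call without vehicle female 2, vehicle female 5 or let-7f female 2 (highest adjusted p 0.088) and without the 5 libraries (adjusted p = 0.056). None of the 3 overlapped between the sets. Crb2, Prmt8 and Cyb5b were not called, with log2 differences of -0.57, -0.31 and -0.19 (limma adjusted p = 0.058, 0.10 and 0.28).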

How the data were processed

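Poly-A RNA of 14 whole mouse fetuses was sequenced. Per the submitters' processing notes, the tools were Trimmomatic 0.39, kallisto 0.50.1, FastQC 0.12.1, MultiQC 1.28 and DESeq2 1.48.2, and the build was GRCm39. The authors deposited 1 table of normalized signal, gene counts divided by a factor per library. Dividing by each library's smallest value above 0 gave whole numbers for 100% of values (tolerance 1e-06). These recovered counts were used by edgeR 4.0.16 and DESeq2 1.42.0 as alternatives. How the authors' counting treated strand was not given in the labels or files. A row without a gene name held 0.018% to 0.0334% of the recovered counts and was left out. Of 18132 genes, 17400 with a mean of at least 10 were fitted with limma 3.58.1 in R 4.3.3 on log2(value + 1), which understates changes of low genes, with set and treatment as terms. The 7 index globins were left out of the adjustment over 17393 genes. Libraries of 1 group differed beyond sampling noise. The limma fit was tested on simulated data, and the outcome is not reported here.

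The sets, gene lists and tests were chosen with earlier results of these data known. Named genes were the 10 largest called differences in each direction with a mean of at least 50 and an established symbol, the 3 called members of smallest p of each list or 2 members of other lists described, a fixed set of globin-related, let-7 and liver genes, and the 5 genes most like the index in each direction. Crygb, Cryba2 and Sox9 and the remaining matrix genes are named where a count refers to them. Alternatives changed the pseudocount, filter, scaling, spread model, covariates, samples and test, one at a time. A few genes that the rule names are not reported here.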

Additional observations from a re-analysis of the deposited data

Results flagged for a closer look

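List scores (mean log2 deviation from the 14-fetus mean) were examined for a fetus standing far from the rest of its set, in 96 combinations of list and set. A gap above Dixon's 95% critical value was found 20 times; by that value's definition, chance gives about 1 in 20 groups. Among advanced fetuses, vehicle male 1 stood high for trophoblast and placenta genes (1.28) and yolk sac endoderm genes (1.56), let-7f female 2 high for collagen and matrix (0.344), vehicle male 2 low for Hox genes (-0.314) and vehicle male 3 low for endothelial genes (-0.174).

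Among early fetuses, vehicle female 2 stood low for fetal liver secreted proteins (-5.12), yolk sac endoderm (-2.11), red cell enzymes and late maturation (-1.44), red cell membrane and skeleton (-1.17), erythroid transcription factors (-0.951), heme synthesis (-0.86), Hox genes (-0.798) and blood stem cell and progenitor genes (-0.552). Let-7f male 1 stood high for cytosolic ribosomal proteins (1.91), respiratory chain (1.77), mitochondrial ribosomal proteins (1.23), hypoxia and glycolysis (0.349) and bone formation (0.174), and low for collagen and matrix (-0.473). Let-7f female 3 stood high for gut, lung and pancreas genes (0.148).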

How the results depend on the processing

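All called genes measured kept their direction under each of the 34 other settings, but the count of calls did not hold. In the order all, higher and lower, limma called 1580, 914 and 666 genes with library weights, 80, 71 and 9 with sex as a further covariate, 38, 36 and 2 in vehicle fetuses only, 413, 372 and 41 with the index as a number, 1376, 839 and 537 with the ribosomal protein score as a covariate, 35, 34 and 1 with the liver score and 22, 20 and 2 with the erythroid score. It called 0, 0 and 0 both in females only (smallest adjusted p 0.19) and with the 4 groups of treatment by sex as covariates (0.0704). DESeq2 called 497, 376 and 121. Without the 5 libraries there were 104, 95 and 9. Leaving out 1 fetus gave 31 to 194, 30 to 167 and 1 to 27. The cause of these moves was not tested. Other pseudocounts, filters, scaling to the 75th percentile, a robust spread, no treatment term and edgeR stayed within 1.5 times. With the replicate number as a replicate block, 9, 9 and 0 genes were called. Of 16 same-numbered pairs, 5 correlated over 0.1 (-0.576 to 0.346), and 1 of 14 fetuses correlated best with its own number. These correlations used deviations from group means, which mirror each other in the let-7f males. They cannot decide whether same-numbered fetuses share a litter or batch. The males-only fit was not run, since set and treatment coincide in males.

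Reversed signs arose at genes not called. Myb (log2 difference) had -0.0378 with library weights, -0.0479 in vehicle fetuses, -0.00415 by DESeq2, -0.00755 with the ribosomal, -0.0961 with the liver and -0.139 with the erythroid score, -0.0775 without the 5 libraries, and -0.0825 to 0.122 with 1 fetus left out. Kit had 0.0203 with library weights and 0.0059 without the 5 libraries. In vehicle fetuses Uqcrb had 0.14, Ndufs4 0.269 and Rps27a 0.136; Uqcrb had 0.00413 with the index as a number. Lars2 had -0.426 under the block and -0.167 to 0.771 with 1 fetus left out. With the liver and then the erythroid score, Klf1 had -0.21 and -0.352, Alas2 -0.225 and -0.283, Alb -0.29 and -0.401, Afp -0.758 and -0.789, and Lars2 -0.629 and -0.567; Hbq1b had -0.00314 with the erythroid score.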

Other observations

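Several called genes outside the gene lists were chosen here after their values were seen. Thbs4, thrombospondin-4 of tendon and muscle, had lowest, median and highest normalized counts of 645, 904 and 1115 in advanced fetuses, against 341, 391 and 451 in early fetuses, and rose by 1.08 ± 0.14 on the log2 scale (SE; limma adjusted p = 0.0029). Myh11, smooth muscle myosin, had 563, 813 and 947 in advanced fetuses, against 300.9, 372 and 445 in early fetuses, and rose by 1.03 ± 0.14 (SE; limma adjusted p = 0.0042). Chd5, a chromatin remodeller of neurons, had 792, 953 and 1146 in advanced fetuses, against 401, 481 and 542 in early fetuses, and rose by 1.03 ± 0.11 (SE; limma adjusted p = 6.6e-04). The sets did not overlap at these genes, and each kept its call in all 14 fits that left out 1 fetus.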
